A study of Homo sapiens with 16 samples.

Results

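HepG2, a human liver cancer line that keeps many traits of hepatocytes, was separated into a nuclear and a cytoplasmic fraction in the study's control condition, and the RNA of each fraction was sequenced. The comparison described here sets the 2 nuclear NC libraries against the 2 cytoplasmic NC libraries of that line, which are 4 of the 16 libraries of the series, and were chosen by their labels for cell line, fraction and treatment. The 4 libraries share the same treatment: cells were transfected with NC, the control of the siRNA experiment, and were harvested after 48 h. The other 4 HepG2 libraries, 2 of each fraction, came from cells that had received siPANAD-1 together with siPANAD-2. They were fitted together with the NC libraries, and so helped to set the genes tested, the scaling and the spread between replicates. With only the NC libraries fitted, 16166 genes were tested instead of 17499. The same 4 groups exist for SNU-449, a second liver cancer line, and its 2 nuclear and 2 cytoplasmic NC libraries are used below for comparison. The study concerns PANAD (gene symbol C7orf25), the export receptor NXF1 and the export of CDK6 mRNA, so the control fractions give the distribution of each RNA before any knockdown.

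A messenger RNA is made, capped, spliced and polyadenylated in the nucleus, is handed to the NXF1-NXT1 receptor by adaptors of the TREX complex, and leaves through the nuclear pore to be translated. How much of it is found in the nucleus at one time therefore reflects how fast it is made and processed, how fast it leaves, and how long it lives in the cytoplasm. Many long non-coding RNAs stay in the nucleus for good, among them MALAT1 and NEAT1, the scaffold of paraspeckles, while mRNAs of long-lived housekeeping proteins such as GAPDH are held mostly on cytoplasmic ribosomes.

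The cytoplasmic libraries held 17727305 and 30321908 counts and the nuclear libraries held 16238235 and 17618795. At least 1 count was seen for 21308 and 22985 genes in the cytoplasm and for 26217 and 26429 in the nucleus, so the shallower nuclear libraries covered more genes. Replicates of a fraction correlated across genes with a Pearson coefficient of 0.994 in both fractions, and the median absolute log2 difference between them was 0.199 in the cytoplasm and 0.173 in the nucleus. All levels below are CPM relative to the TMM-adjusted library size, and every fold change is the ratio of these levels, nucleus over cytoplasm. TMM factors were 0.781 and 0.817 for the cytoplasmic and 1.253 and 1.209 for the nuclear NC libraries. A fold change is therefore not the ratio of a gene's plain shares of counts, which scaling by library totals gives. It does not count molecules per cell either. A larger RNA pool in 1 fraction cannot be told apart from a smaller share of each gene in it. Scaling by library totals alone would raise log2 fold changes by a median of 0.62, so that negative values closer to 0 than this, list medians included, would mostly turn above 0 or lose their call. None of the 15 mitochondrially encoded genes had a count in any of the 4 libraries, so they gave no measure of carry-over between fractions.

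The fraction markers lay in opposite directions. MALAT1 (chr11:65497688-65506516), a nuclear-speckle lncRNA, stood at 6.80 and 7.15 CPM in the cytoplasm and at 316.4 and 306.8 CPM in the nucleus, a 44.5-fold difference (log2 fold change 5.48, SE 0.15, edgeR adjusted p = 5.9e-19). NEAT1 stood at 79.7 and 109.8 CPM in the cytoplasm and at 933.4 and 1114.0 CPM in the nucleus, 10.8-fold higher (SE 0.17 on the log2 scale, edgeR adjusted p = 3.2e-15). GAPDH, a glycolytic enzyme, went the other way, with 7072.7 and 5271.3 CPM in the cytoplasm and 890.0 and 825.2 CPM in the nucleus, 7.20-fold lower in the nucleus (edgeR adjusted p = 1.4e-13). The groups did not overlap for any of the 3 markers. ALB, the main plasma protein of hepatocytes, was read at 7170 to 9890 CPM of the unscaled library totals in all 4 libraries, and the liver markers AFP, TTR, APOA1, SERPINA1, FGB and HNF4A all had counts in each of them. The 18 markers of immune and blood cells summed to 373 and 521 unscaled CPM in the cytoplasm and to 132 and 158 in the nucleus, most of it LYZ, while PTPRC had 2, 0, 0 and 0 counts and CD3E had none. The 16 endothelial and stellate cell markers summed to 45.3 and 40.4 in the cytoplasm and to 48.3 and 43.1 in the nucleus, with KDR and CLEC4G at 0. Of these lists 11 and 7 genes could be tested, of which 1 and 2 were higher in the nucleus and 2 and 2 in the cytoplasm.

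Most genes differed between the fractions. Of the 17499 genes with enough counts to test, 6892 were higher in the nucleus (39.4%) and 6600 were higher in the cytoplasm (37.7%) at an adjusted p under 0.05 in edgeR's quasi-likelihood test, and 5118 (29.2%) and 4178 (23.9%) of them were at least 2-fold apart. The median log2 fold change was 0.04, with quartiles at -0.97 and 1.36. Because most genes passed, the background shares of 39.4% and 37.7% are what any gene class has to be read against. With scaling by library totals alone the split moved to 9505 genes higher in the nucleus and 4036 higher in the cytoplasm, so that 70.2% of called genes were nuclear instead of 51.1%. Under that scaling 93 of the genes called here were called in the opposite direction.

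The plot of 16 genes by library shows the range that these differences span, from genes about as abundant in both fractions to genes apart by more than an order of magnitude.

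**Figure D1:**
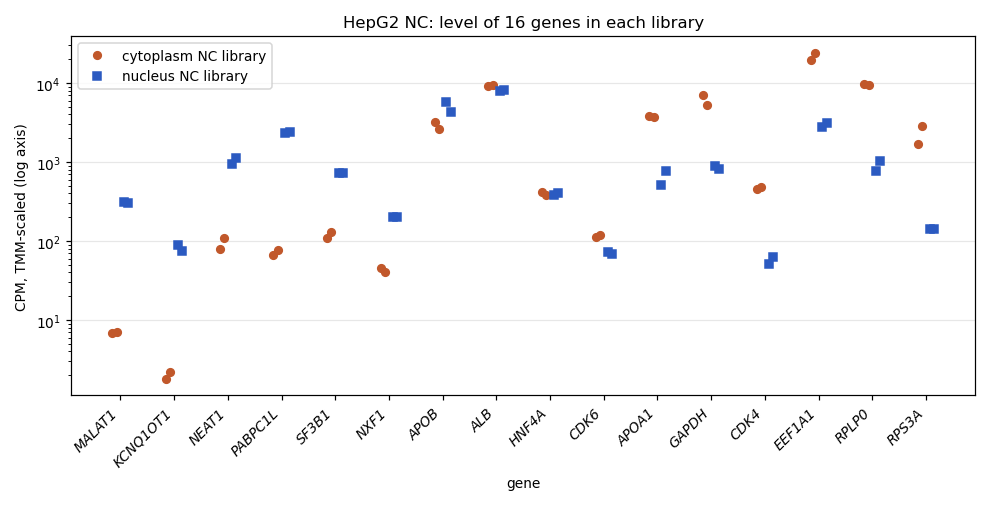
Level of 16 genes (x axis) in CPM scaled with TMM factors (y axis, log scale) in the 2 cytoplasmic NC libraries (circles) and the 2 nuclear NC libraries (squares) of HepG2, with no averaging. MALAT1, KCNQ1OT1, NEAT1, PABPC1L, SF3B1, NXF1 and APOB lie higher in the nucleus, ALB and HNF4A lie close together, and the genes from CDK6 to RPS3A lie higher in the cytoplasm.

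A few very abundant mRNAs took a larger share of the cytoplasm than of the nucleus. The 10 highest genes of each library held 8.94% and 8.35% of cytoplasmic counts and 5.68% and 5.46% of nuclear counts, and the 100 highest held 26.7% and 25.6% against 17.6% in both nuclear libraries. The cytoplasm was led, in the mean of its libraries, by EEF1A1, the elongation factor that brings aminoacyl-tRNA to the ribosome, with 19316.7 and 24359.9 CPM against 2755.1 and 3125.0 CPM in the nucleus. Also among the 6 leading cytoplasmic RNAs were FTL, the ferritin light chain that stores iron, and RPLP0 and RPS2, both ribosomal proteins. The nucleus was led by ALB, at 7908.6 and 8183.2 CPM against 9186.5 and 9383.9 CPM in the cytoplasm, a difference that did not pass (log2 fold change -0.21, adjusted p = 0.21 in edgeR) and that turned to 0.42 and passed under scaling by totals. FN1, the fibronectin gene, and APOB, the scaffold protein of VLDL particles, were among the 6 leading nuclear RNAs and were higher there than in the cytoplasm, by 1.72-fold and 1.69-fold. Both encode very large proteins, a property taken up below.

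Gene classes differed in the direction in which most tested members moved. Of 14782 long non-coding RNA genes, 2693 had enough counts to test. Those tested were mainly nuclear: 1587 (58.9%) were higher in the nucleus and 365 (13.6%) higher in the cytoplasm. Their median log2 fold change was 1.53 against 0.04 over all genes tested. A gene could pass the count filter through its nuclear libraries alone, so these values do not describe the class as a whole. Protein-coding genes in the bin of lowest mean CPM also leaned to the nucleus (median 0.62). The part of level in the lncRNA values was not tested. Protein-coding genes leaned to the cytoplasm, with 4334 (33.7%) and 5697 (44.2%) of 12877 and a median of -0.19, which turns to 0.43 when libraries are scaled by totals alone. In shares of all counts, lncRNAs held 0.711% and 0.791% of the cytoplasmic libraries and 2.06% and 1.99% of the nuclear libraries, while protein-coding genes held 97.8% and 97.7% against 96.2% and 96.3%. The nuclear shift of the lncRNA class thus applied to a small part of the RNA. In 117 of the lncRNAs 1 fraction had no count at all; with these set to the limit that 3 counts per fraction allow, the class median was 1.48.

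Among lncRNAs, position relative to other genes went with the size of the difference. Sense-intronic lncRNAs lie within introns of other genes on the same strand. The 168 tested, of 868, had a median log2 fold change of 2.37, with 125 higher in the nucleus and 13 in the cytoplasm. The 1250 antisense lncRNAs tested, of 5543, had a median of 1.73 (774 and 155). The 1003 intergenic lncRNAs (lincRNAs) tested, of 7498, had a median of 0.96 (510 and 163). The 33 transcribed from bidirectional promoters had the lowest median of these types, 0.51, with 14 nuclear and 8 cytoplasmic. Single-exon lncRNAs (637) had a median of 1.81 and spliced ones (2056) of 1.40. Since whether counting used strand is not given, reads of antisense genes cannot be told apart from reads of the gene opposite to them. Whatever the use of strand, reads of sense-intronic genes cannot be told apart from intron reads of the gene they lie in. Among genes that share no exonic base with another gene, the lncRNA median was 1.33 and that of all genes -0.08.

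**Figure D2:**
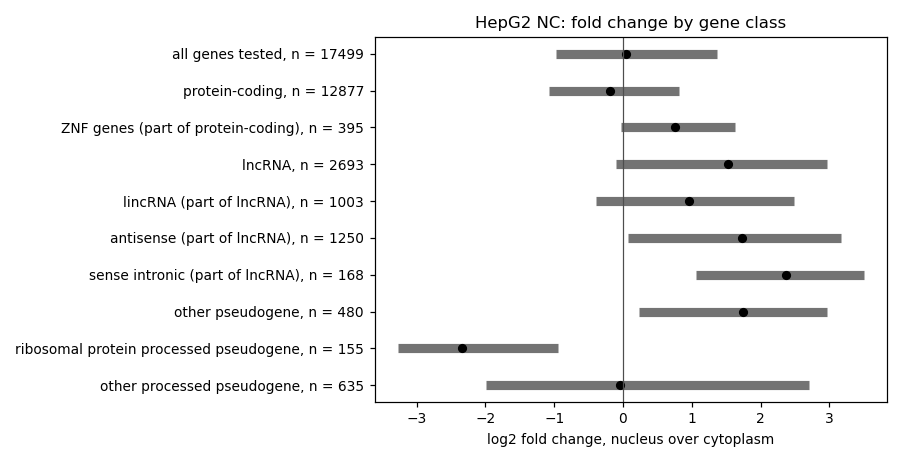
Log2 fold change of nucleus over cytoplasm (x axis) for gene classes (y axis, with the number of tested genes), where the point is the median over genes, the bar runs from the lower to the upper quartile, and the line marks no difference. LncRNAs lie to the right with sense-intronic lncRNAs farthest at 2.37, and processed pseudogenes of ribosomal proteins lie farthest to the left at -2.34.

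Known nuclear lncRNAs all moved the same way. Of 12 on the list, 8 could be tested and all 8 were higher in the nucleus, with a median of 3.21. KCNQ1OT1, the antisense RNA that silences the imprinted KCNQ1 domain, was read at 1.81 and 2.18 CPM in the cytoplasm and at 88.8 and 75.9 CPM in the nucleus (40.3-fold, log2 5.33, SE 0.17). FTX, a lncRNA gene of the X-inactivation centre, was at 1.52 and 1.13 CPM against 43.2 and 32.5 CPM (log2 4.88, SE 0.21). Of the exonic bases of FTX, 44.3% lie opposite another gene. Among all lncRNAs of at least 10 CPM on average, the highest fold changes belonged to ENSG00000259972 (5.65), MALAT1 (5.48), ENSG00000264112 (5.35), KCNQ1OT1 (5.33), FTX (4.88) and DBH-AS1 (4.76).

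A smaller group of lncRNAs was cytoplasmic. LINC02525 was at 28.6 and 30.3 CPM in the cytoplasm and 4.63 and 4.99 CPM in the nucleus, 6.13-fold lower (log2 -2.62, SE 0.15). RNASEH1-DT was at 75 and 66.4 against 11.3 and 13.9 CPM (log2 -2.48), and PCCA-DT at 18 and 18.7 against 3.25 and 4.14 CPM (log2 -2.31). Both are divergent transcripts that start beside the promoter of a protein-coding gene. Of the 6 tested RNAs on the list of lncRNAs known from the cytoplasm, 3 were higher there: DANCR, HULC and CYTOR, with log2 fold changes of -1.93, -1.37 and -1.10. NORAD, which binds Pumilio proteins in the cytoplasm, did not pass in either direction, at 174.8 and 207.0 CPM against 162.2 and 167.8 CPM (log2 -0.21, SE 0.13, adjusted p = 0.13 in edgeR). It passed at -0.35 when cytoplasmic replicate 1 was left out, and at 0.41, in the other direction, under scaling by totals.

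Host genes of small nucleolar RNAs, whose introns carry snoRNAs while the spliced exons are often short-lived, were split. Of 20 tested, 10 were higher in the nucleus and 6 in the cytoplasm, with a median of 0.68. SNHG12 had the highest fold change, with 16.1 and 26.1 CPM in the cytoplasm and 125.0 and 173.5 CPM in the nucleus (log2 2.80, SE 0.20), and DANCR the lowest. GAS5, the most abundant host gene, was at 316.8 and 420.7 against 404.9 and 481.4 CPM and did not pass (log2 0.26, adjusted p = 0.097 in edgeR), although it did with DESeq2 (0.35), with RLE size factors (0.35), with totals (0.88), and without cytoplasmic replicate 2 (0.54) or nuclear replicate 1 (0.37).

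Mature small RNAs were hardly captured. RN7SK, RMRP, RPPH1, TERC and RN7SL2 had no count in any of the 4 libraries, and of the 21 listed small structured RNAs only VTRNA1-2 and RN7SL1 could be tested, both higher in the cytoplasm. RN7SL1, the RNA of the signal recognition particle, stood at 5.06 and 6.02 CPM against 1.77 and 3.86 CPM (log2 -0.98). Its exonic bases are all shared with another gene on the same strand, and the call was lost without cytoplasmic replicate 2 (-0.78), without nuclear replicate 1 (-0.55) and under scaling by totals (-0.37). Small RNA genes that could be tested were mostly nuclear, all at low levels. Higher in the nucleus were 33 of 36 snoRNA and scaRNA genes, 31 of 37 miRNA genes and 12 of 13 snRNA genes. The genes tested were 36 of 991, 37 of 1879 and 13 of 1909 in these classes. A gene could pass the count filter through its nuclear libraries alone, so these counts do not describe the classes as a whole. Together the miRNA genes held 0.00138% and 0.00176% of cytoplasmic counts and 0.0106% and 0.0118% of nuclear counts. All 13 snRNA genes tested carry the names of pseudogene copies. SNORD17 was the single snoRNA higher in the cytoplasm, with 18.3 and 14 CPM against 5.61 and 5.60 CPM (log2 -1.52).

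Processed pseudogenes, retrotransposed copies of spliced mRNAs, were split between copies of ribosomal protein genes and the rest. The 155 tested copies named after a cytosolic ribosomal protein gene had a median log2 fold change of -2.34, with 118 higher in the cytoplasm and 28 in the nucleus, while the other 635 had a median of -0.04 (0.57 under scaling by totals) with 275 and 260. Of 4523 other pseudogenes, the 480 tested were mainly nuclear, with a median of 1.75. These too could pass the count filter through their nuclear libraries alone. Reads of a processed pseudogene and its parent are often interchangeable, so values for these copies, and in part for the ribosomal protein genes, are uncertain.

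For protein-coding genes, the length of the coding sequence went with the distribution more than any other structural feature compared. In 5 bins of equal size, the median log2 fold change rose from -1.29 in genes with a coding sequence of 52 to 771 bases, through -0.73, -0.23 and 0.14, to 0.75 in genes with 2526 bases or more. In the shortest bin 72.9% of genes were higher in the cytoplasm and 12.9% in the nucleus, and in the longest bin 13% and 64.3%. Transcript length gave medians from -1.05 to 0.44, exon number from -0.78 to 0.65, and gene span, which includes introns, from -0.66 to 0.10. GC content gave no order, with medians between -0.31 and -0.09. Across the 12877 genes the Spearman coefficient with the log2 fold change was 0.493 for coding length, 0.363 for exon number, 0.309 for transcript length, 0.161 for gene span and -0.00775 for GC content (12870 genes). These are descriptions across genes of the same 4 libraries, and genes are not independent replicates.

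Coding length and exon number move together, so they were crossed. Among genes with the shortest coding sequences (up to 1050 bases), the median was -1.19 with up to 6 exons (2888 genes), -0.83 with 7 to 13 exons (1390 genes) and 0.81 with 14 or more, a cell of only 23 genes. With middle coding sequences (1053 to 1872 bases), it was -0.22 (1133 genes), -0.29 (2423 genes) and -0.15 (734 genes) in the same order. Among genes with the longest coding sequences (1875 bases or more), it was 0.40 with up to 6 exons (424 genes). With 7 to 13 exons it was 0.40 (733 genes), and with 14 or more 0.59 (3129 genes). With coding length fixed, the medians did not rise with gene span: from the shortest to the longest spans they were -1.08, -1.01 and -1.15 for short coding sequences, -0.08, -0.21 and -0.38 for middle ones, and 0.58, 0.57 and 0.50 for long ones. The level of a gene also moved with the fold change, with a median of 0.62 in the bin of lowest mean CPM and -0.72 in the bin of highest, and a Spearman coefficient of -0.292. The part of level in the length pattern was not tested. Scaling by totals alone shifted all of these medians upwards, to -0.67 and 1.37 in the bins of shortest and longest coding sequences, and kept their order.

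**Figure D3:**
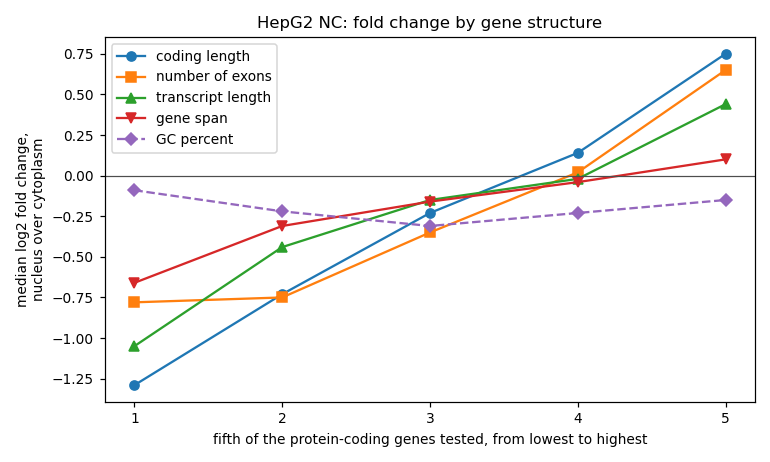
Median log2 fold change of nucleus over cytoplasm (y axis) in 5 bins of equal size (x axis, from lowest to highest) of the tested protein-coding genes, for 5 gene properties. Coding length rises from -1.29 to 0.75, gene span from -0.66 to 0.10, and GC content stays between -0.31 and -0.09.

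The genes of the ribosome had the lowest median of all lists compared. Of the 79 genes for cytosolic ribosomal proteins, all of which could be tested, 76 were higher in the cytoplasm and 2 in the nucleus, against background shares of 37.7% and 39.4%, with a median log2 fold change of -2.43. Together they held 11.7% and 11.8% of all cytoplasmic counts and 2.82% and 3.27% of nuclear counts. RPS3A had the lowest fold change of the list, with 1711.6 and 2852.8 CPM in the cytoplasm and 140.4 and 144.0 CPM in the nucleus, 16-fold lower (log2 -4.00, SE 0.20, edgeR adjusted p = 2.2e-13). RPLP0, a protein of the ribosomal stalk and the most abundant member, was at 9712.5 and 9474.7 CPM against 775.8 and 1035.7 CPM (log2 -3.40, SE 0.17). RPL15 was at 3011.9 and 2564.0 against 239.0 and 271.9 CPM (log2 -3.45). For each of the 3 genes both nuclear libraries lay far below both cytoplasmic ones. These genes have short coding sequences (median 471 bases), but they also lay below genes of similar length: relative to the median of their own length bin the list's median was -1.19.

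Ribosomal protein mRNAs are known for a terminal oligopyrimidine (TOP) tract, a C followed by a run of pyrimidines at the very start, through which their translation is controlled. To show it, 30 bases around the RefSeq start site (15 before it and 15 from it onward; RefSeq, GRCh38.p14) are printed for 6 cytoplasmic members and for the 2 members that were higher in the nucleus, in the direction of transcription, with each CTTTC in capitals.
RPL35 (chr9:124861943-124861972, minus strand): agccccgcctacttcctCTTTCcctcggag
RPS12 (chr6:132814554-132814583, plus strand): gcgtgcggatgaggcctCTTTCcctgccgc
RPS19 (chr19:41860240-41860269, plus strand): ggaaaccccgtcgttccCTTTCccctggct
RPS3 (chr11:75399503-75399532, plus strand): gcccgcgagccacttcCTTTCCTTTCagcg
RPL21 (chr13:27251543-27251572, plus strand): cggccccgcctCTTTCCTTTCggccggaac
RPL7A (chr9:133348203-133348232, plus strand): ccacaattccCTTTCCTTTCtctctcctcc
RPS10 (chr6:34426055-34426084, minus strand): ccgcgcatgctccttcCTTTCcagccccgg
RPL36A (chrX:101390996-101391025, plus strand): tttgcctcgcggtttCTTTCtttccgcgcc

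The pentamer CTTTC, searched in the direction of transcription only, was found in this window in 28 of 63 ribosomal protein genes with a promoter in the table (44.4%), against 403 of all 10406 tested protein-coding genes (3.87%) and 4.18% of all 27305 promoters. It did not mark the more cytoplasmic members: the median log2 fold change was -2.28 in ribosomal protein genes with it and -2.39 in those without it. Among the 10343 other protein-coding genes the medians were -0.26 with it (375 genes) and -0.18 without it. The pentamer is not the TOP tract itself, and 15 bases of the window lie before the start. These splits therefore do not show whether the tract goes with the distribution. RPS10 and RPL36A carry the same letters at their start as the cytoplasmic members, yet were counted at 1.16 and 2.22 against 7.97 and 10.8 CPM (RPS10, log2 2.38) and at 1.08 and 1.45 against 14.1 and 11.9 CPM (RPL36A, log2 3.30). Their levels were far below those of other ribosomal protein genes, and both lie in annotated readthrough genes, a point returned to below.

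Other parts of the translation apparatus and of mitochondria followed. Of 37 translation factors, 31 were higher in the cytoplasm and 6 in the nucleus (median -1.24). EEF1B2, which recharges EEF1A with GTP, had 2094.1 and 2410.9 CPM in the cytoplasm and 292.8 and 302.3 in the nucleus (log2 -2.92, SE 0.16). On the nuclear side were PABPC4, EIF4G1, EIF5B, EIF3A, EIF4A2 and EIF4A1; EIF4G1, the scaffold of the cap-binding complex and a very long mRNA, was at 474.2 and 442.4 against 691.7 and 750.5 CPM (log2 0.65). Mitochondrial ribosomal protein genes, which are nuclear genes, were cytoplasmic in 70 of 73 cases and nuclear in 2 (median -1.56), and oxidative phosphorylation genes were cytoplasmic in 67 of 75 and nuclear in 3 (median -1.54). MRPL37 was at 435.3 and 346.8 against 70.1 and 66.2 CPM (log2 -2.52), and ATP5F1B, the catalytic subunit of ATP synthase, at 1242.0 and 1335.9 against 339.3 and 401.8 CPM (log2 -1.80). SDHC of complex II had the lowest value of its list, -3.03. The 31 proteasome subunit genes, with 26 cytoplasmic and 2 nuclear, had a median of -1.26, and PSMB7 was lowest at -2.75. Measured against genes of like coding length, the medians of these lists shrank to -0.71 for translation factors, -0.43 for mitochondrial ribosomal proteins, -0.45 for oxidative phosphorylation and -0.74 for the proteasome.

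**Figure D4:**
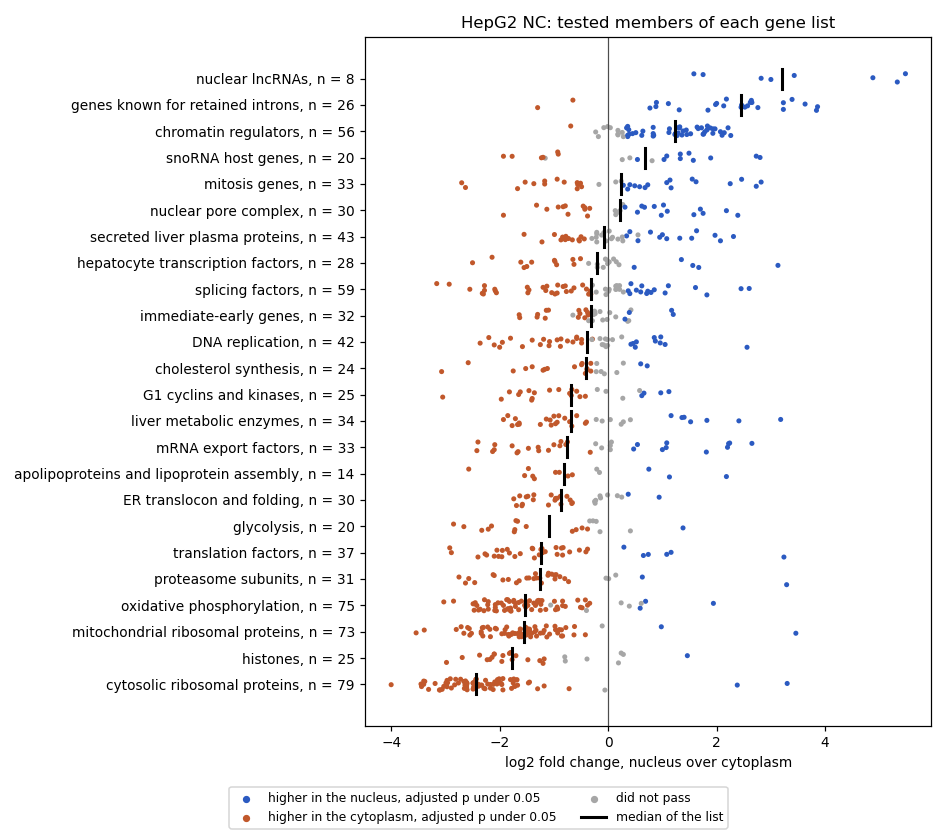
Log2 fold change of nucleus over cytoplasm (x axis) of every tested member of 24 gene lists (y axis, with the number tested), coloured by the call at an adjusted p under 0.05 in edgeR, with a bar at each list's median. The medians run from 3.21 in nuclear lncRNAs to -2.43 in cytosolic ribosomal proteins.

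On the nuclear side, mRNAs known for retained or detained introns were mainly nuclear. Of 26 such genes, all tested, 24 were higher in the nucleus and 2 in the cytoplasm, with a median of 2.45, and relative to genes of like coding length the median was 2.68. RBM39, a splicing coactivator and the most abundant member, was at 408.9 and 512.7 CPM in the cytoplasm and at 1846.5 and 1796.4 CPM in the nucleus (log2 1.98, SE 0.15, edgeR adjusted p = 5.3e-12). OGT, the O-GlcNAc transferase whose detained intron responds to O-GlcNAc levels, was at 102.3 and 145.0 against 1563.5 and 1497.9 CPM (log2 3.63, SE 0.17), and CLK1, a kinase of SR proteins, at 36.6 and 44.2 against 283.7 and 265.5 CPM (log2 2.76). GABBR1 had the highest value, 3.86, at a low level of 0.217 and 0.444 CPM in the cytoplasm. The exceptions were SRSF3 (log2 -1.30) and TRA2B (log2 -0.65), both splicing regulators.

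Splicing factors as a whole were divided, with 16 of 59 nuclear, 30 cytoplasmic and a median of -0.32 that turns to 0.30 under scaling by totals. Relative to genes of like coding length their median was -0.10. Members of 1 complex could differ. In the SF3B complex, which binds the branch point, SF3B1 was at 107.9 and 129.8 against 722.9 and 717.6 CPM (log2 2.60, SE 0.14), while the small subunit SF3B5 was at 272.1 and 197.1 against 22.7 and 29.6 CPM (log2 -3.16, SE 0.17). HNRNPA1, the most abundant of the list, was cytoplasmic at -0.98.

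Chromatin regulators, with long coding sequences (median 5983.5 bases), were mainly nuclear. Of 56 tested, 45 were higher in the nucleus and 1, BRD3, in the cytoplasm, with a median of 1.23 and, relative to genes of like coding length, of 0.50. BRD3, at -0.69, was at -0.07 and did not pass under scaling by totals. CHD6, a chromatin remodeller, was at 25 and 21.5 against 117.8 and 104.0 CPM (log2 2.26, SE 0.13), KMT2D, a histone H3 lysine 4 methyltransferase, at 25.1 and 28.2 against 90.0 and 91.0 CPM (log2 1.76), and BRD2 at 211.8 and 211.2 against 536.5 and 453.5 CPM (log2 1.23). The list as a whole held 0.206% and 0.207% of cytoplasmic counts and 0.644% and 0.574% of nuclear counts. Zinc finger genes named ZNF with a number leaned the same way, with 246 of 395 nuclear, 62 cytoplasmic and a median of 0.76; here the median relative to genes of like coding length was 0.82.

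The mRNA export machinery, to which the study's proteins belong, had mRNAs at both ends. NXF1, the general export receptor, was at 45.8 and 41.0 CPM in the cytoplasm and at 203.8 and 199.3 CPM in the nucleus, 4.66-fold higher (log2 2.22, SE 0.13, edgeR adjusted p = 8.7e-14). Its obligate partner NXT1 was at 164.3 and 138.5 CPM in the cytoplasm and at 26.2 and 30.2 CPM in the nucleus, 5.36-fold lower (log2 -2.42, SE 0.14, edgeR adjusted p = 3.1e-14). The 2 subunits of the receptor thus had mRNAs with opposite distributions, with no overlap between groups in either case. NXF1 is also known to make a transcript with a retained intron that carries a constitutive transport element; gene counts do not separate it from the spliced mRNA.

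Of 33 export factors tested, 18 were higher in the cytoplasm and 10 in the nucleus, with a median of -0.75. Relative to genes of like coding length the median was -0.02. In the THO part of TREX, which couples transcription to export, THOC1 and THOC2 were nuclear, THOC1 at 2.24, and THOC3, THOC5, THOC6 and THOC7 were cytoplasmic (-2.10, -1.47, -0.75 and -2.09). ALYREF, the adaptor that hands mRNA to NXF1, was at 273.0 and 290.4 against 56.3 and 50.6 CPM (log2 -2.40). ZFC3H1, which retains polyadenylated RNA in the nucleus for decay, had the highest value of the list, with 9.40 and 10.2 against 65.0 and 58.2 CPM (log2 2.65). RAN, the GTPase of nuclear transport and the most abundant member, was at 816.1 and 924.6 against 272.4 and 279.7 CPM (log2 -1.66). Nuclear pore genes were split evenly, 13 nuclear and 12 cytoplasmic of 30 (median 0.21), from NUP37 of the scaffold at -1.93 to RANBP2, the giant filament protein, at 2.39.

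C7orf25, the gene the study targets, could not be followed at the RNA level in these tables. It had 0 and 1 counts in the cytoplasmic libraries and 0 and 2 in the nuclear ones, and 3 counts, the limit for a count of 0, correspond to 0.169, 0.0989, 0.185 and 0.170 unscaled CPM of the 4 libraries. In GENCODE 29 the gene (chr7:42908726-42912305, minus strand) shares 61.1% of its exonic bases with another gene on the same strand. Its neighbour PSMA2, a proteasome subunit, had 4 and 9 counts in the cytoplasm and 67 and 72 in the nucleus, far fewer than PSMA7 at 924.6 and 897.5 CPM in the cytoplasm.

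CDK6, the mRNA whose export the study examines, leaned to the cytoplasm in control cells. It stood at 113.4 and 119.2 CPM in the cytoplasm and at 73.1 and 68.7 CPM in the nucleus, 1.64-fold lower in the nucleus (log2 -0.71, SE 0.12, edgeR adjusted p = 7.0e-06), and the groups did not overlap. Scaled by totals alone the value was -0.09 and did not pass (adjusted p = 0.5 in edgeR). Its paralogue CDK4 was far more cytoplasmic, at 453.5 and 488.1 against 51.3 and 62.6 CPM (log2 -3.05, SE 0.14), although another gene covers 43.2% of its exonic bases on the opposite strand. Of 25 genes of the G1 machinery, 17 were higher in the cytoplasm and 4 in the nucleus (median -0.68). Relative to genes of like coding length the list's median was -0.17. The cyclins CCND1 and CCNE1 were cytoplasmic, with log2 fold changes of -1.62 and -1.40, as was the inhibitor CDKN1A (-1.36). The nuclear members were RBL2, CCND2, RBL1 and E2F3, of which E2F3 was highest at 1.12, with 21 and 24.4 against 47.6 and 51.5 CPM. E2F4, the most abundant, was cytoplasmic at -0.42, which turns to 0.20 under scaling by totals and does not pass there or when cytoplasmic replicate 1 is left out.

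Genes of mitosis and DNA replication spanned the same range. Of 33 mitotic genes, 16 were nuclear and 14 cytoplasmic (median 0.24). CENPF, a very large kinetochore protein, was at 29.7 and 31.5 against 248.4 and 184.3 CPM (log2 2.82, SE 0.15), and BIRC5, the small chromosomal passenger protein survivin, at 259.1 and 334.3 against 39.1 and 52.3 CPM (log2 -2.70, SE 0.15). ASPM and MKI67 were nuclear as well (2.73 and 2.46), and MAD2L1 cytoplasmic (-2.63). PLK1 was cytoplasmic at -0.57, but at 0.06 and not past the threshold under scaling by totals. Of 42 replication genes, 22 were cytoplasmic and 10 nuclear (median -0.39, or 0.23 under scaling by totals), from GINS2, a subunit of the replicative helicase, at -2.36 to POLE, the leading-strand polymerase, at 2.56. Relative to genes of like coding length the medians were -0.02 for mitosis and -0.40 for replication. Among members that share no exonic base with another gene, the mitosis median was -0.18 and the nuclear pore median -0.06.

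Secreted liver proteins were spread over both fractions in spite of their high levels. Of 43 tested, 13 were higher in the nucleus and 15 in the cytoplasm, with a median of -0.08 (0.55 under scaling by totals), and together they held 4.78% and 4.27% of cytoplasmic counts and 5.76% and 5.72% of nuclear counts. AHSG, the fetuin gene, was cytoplasmic at -0.53, but at 0.09 and not past the threshold when libraries were scaled by totals. SERPINA1, the antitrypsin gene, was at 10017.4 and 6656.2 against 5125.5 and 4510.1 CPM (log2 -0.79, SE 0.17), but at -0.16 and not past the threshold under scaling by totals. TTR, the small thyroxine carrier, was lowest at -1.55. SERPINA3 was highest, with 8.39 and 7.6 against 46.6 and 32.5 CPM (log2 2.31), with 31.8% of its exonic bases shared on the same strand. Transferrin (TF), at 3749.3 and 3943.7 against 3518.0 and 3579.7 CPM, did not pass (log2 -0.12), but passed at 0.51 under scaling by totals.

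Most small apolipoproteins and the very large APOB lay on opposite sides. APOA1, the small main protein of HDL, was at 3876.2 and 3684.1 CPM in the cytoplasm and at 511.1 and 761.6 CPM in the nucleus, 5.94-fold lower (log2 -2.57, SE 0.17), and APOC1, APOA4, APOA2, APOC3 and APOE were also cytoplasmic (-1.54, -1.47, -1.39, -1.36 and -0.97). APOB was at 3248.2 and 2657.2 against 5677.4 and 4283.7 CPM (log2 0.75, SE 0.16, edgeR adjusted p = 0.00013). In all, 9 of 14 lipoprotein genes were cytoplasmic and 3 nuclear, with a median of -0.82. Relative to genes of like coding length the median was -0.09. APOC2, at 6.58 and 5.90 against 30.8 and 25.2 CPM (log2 2.18), shares 55.4% of its exonic bases with another gene on the same strand. ER translocon and folding genes were mainly cytoplasmic, 20 of 30 with 2 nuclear (median -0.87), HSP90B1, the ER chaperone GRP94, being highest at 0.94. Their median relative to genes of like coding length was -0.37.

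Liver transcription factors and enzymes were spread over a wide range. HNF4A, a master regulator of hepatocyte identity, did not pass, with 422.2 and 380.6 CPM in the cytoplasm and 387.7 and 402.9 CPM in the nucleus (log2 -0.02, SE 0.13); under scaling by totals it was nuclear at 0.60. MLXIPL, the glucose sensor ChREBP, was at 65.4 and 58.1 against 509.5 and 567.7 CPM (log2 3.13, SE 0.14, edgeR adjusted p = 1.1e-15). FOXA3 was at 68.7 and 84.5 against 12.3 and 14.9 CPM (log2 -2.50, SE 0.14), and CEBPA, an intronless gene, at 165.6 and 182.9 against 34.2 and 44.9 CPM (log2 -2.14), with 43.4% of its exonic bases opposite another gene. Of 28 such factors 12 were cytoplasmic and 5 nuclear. Of 34 metabolic enzymes 21 were cytoplasmic and 7 nuclear (median -0.69), HPD of tyrosine breakdown being both the most abundant and the lowest at -1.93. Relative to genes of like coding length the medians were 0.11 for the factors and -0.35 for the enzymes.

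Histone mRNAs of the replication-dependent kind have no introns and end, without a poly(A) tail, in a conserved stem-loop that binds SLBP. Of 59 genes on the list only 25 had enough counts, 18 of them higher in the cytoplasm and 1 in the nucleus, with a median of -1.77. Relative to genes of like coding length the median was -0.45, over the 24 with a coding length. H2AC6 was at 19.9 and 19.6 against 5.46 and 5.74 CPM (log2 -1.82), and H3C10 at 5.42 and 5.74 against 2.36 and 2.30 CPM (log2 -1.26). H3C6, with 1.66 and 2.59 against 6.40 and 5.74 CPM, was the nuclear exception. Low counts limited this list, since the other 34 genes did not reach the count minimum.

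The stem-loop is shown for 4 of the tested histones, from GENCODE 29 transcripts on GRCh38, with the loop in capitals.
H2AC11 (chr6:27133515-27133530, plus strand): ggctctTTTCagggcc
H2AC13 (chr6:27808647-27808662, plus strand): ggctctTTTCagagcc
H4C11 (chr6:27824459-27824474, plus strand): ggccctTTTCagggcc
H3C10 (chr6:27810516-27810531, plus strand): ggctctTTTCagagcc

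The pattern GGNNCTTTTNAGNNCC, searched on the transcript strand, was found in a transcript of 13 of the tested histone genes and in 43 of all genes tested (0.246%). The 13 had a median log2 fold change of -1.26 (8 cytoplasmic, 0 nuclear), and the 11 whose transcripts in this annotation lack it had a median of -1.94 (9 cytoplasmic, 1 nuclear), so annotated transcripts with the stem-loop were not the more cytoplasmic ones.

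In the remaining lists more genes were called for the cytoplasm than for the nucleus. Glycolysis had 14 of 20 genes cytoplasmic and 1 nuclear, ENO2, at 1.38, with a median of -1.09 that hardly changed relative to genes of like coding length (-1.03). Cholesterol synthesis had 16 of 24 cytoplasmic and 2 nuclear (median -0.41), STARD4, a sterol transfer protein, being highest at 0.72. Immediate-early genes, whose mRNAs are short-lived, had 14 of 32 cytoplasmic, a share near that of all genes, and 4 nuclear (median -0.32), from ATF3 at -1.64 to ZFP36 at 1.20. Of 22 p53 targets 12 were cytoplasmic and 6 nuclear, PHLDA3 being lowest at -2.29 and XPC highest at 1.67. Of 6 metallothioneins tested 5 were cytoplasmic, MT2A at 547.4 and 347.8 against 167.2 and 173.2 CPM (log2 -1.39). The medians of cholesterol genes, immediate-early genes and p53 targets were above 0 under scaling by totals (0.22, 0.29 and 0.23). Relative to genes of like coding length the medians were 0.35 for immediate-early genes and 0.36 for p53 targets. For cholesterol synthesis this median was -0.28, and for metallothioneins it was -0.18 against a plain median of -1.47.

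The single protein-coding genes most shifted to the cytoplasm, among those of at least 10 CPM on average, were MTRNR2L12, RPS3A, RAB32, UBB, DCTPP1, ENDOG, PRELID1, MRPL12, DGCR6L and RPL15, with log2 fold changes from -4.72 to -3.45. UBB, a polyubiquitin gene, was at 905.4 and 898.0 CPM in the cytoplasm and 58.7 and 64.6 CPM in the nucleus (log2 -3.87, SE 0.15). RAB32, a small GTPase of mitochondria and melanosomes, was at 103.5 and 151.6 against 6.35 and 9.64 CPM (log2 -4.00, SE 0.24). MTRNR2L12, at 21.3 and 18.6 against 0.837 and 0.658 CPM, is a nuclear copy of mitochondrial 16S ribosomal RNA, so its reads may come from another locus. On the opposite strand, other genes cover 61.8% of the exonic bases of PRELID1, 42.1% of DCTPP1, 39.25% of ENDOG and 28.4% of UBB. MRPL12, at 57.7 and 122.1 against 4.28 and 11.2 CPM, shares 68.2% of its exonic bases with another gene on the same strand, and its call was lost with only the NC libraries fitted (adjusted p = 0.053 in edgeR).

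At the nuclear end stood MSH5, PABPC1L, NPIPB15, NPEPL1, FAM229A, KRTCAP2, DHPS, IGFL4, NPIPB11 and YJEFN3, with log2 fold changes from 5.47 to 4.40. PABPC1L (chr20:44910062-44959035), a poly(A)-binding protein related to PABPC1, was by far the most abundant, with 66.5 and 77.3 CPM in the cytoplasm and 2338.9 and 2401.4 CPM in the nucleus, 32.9-fold higher (SE 0.17 on the log2 scale, edgeR adjusted p = 6.5e-18). It shares no exonic base with another gene on either strand in GENCODE 29. The others had cytoplasmic levels of 0.434 to 3.92 CPM. Several overlap other genes: MSH5 shares 47.3% of its exonic bases on the same strand, DHPS and YJEFN3 38.5% each, NPEPL1 22.1% and KRTCAP2 18.4%. FAM229A has 46.9% of its exonic bases opposite another gene. NPIPB15 and NPIPB11 belong to a multigene family of near-identical copies, so their counts are uncertain.

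This overlap could be followed over all protein-coding genes. Of 16513 genes that share no exonic base on the same strand, 65.1% had enough counts to be tested, and their median log2 fold change was -0.22. Of 563 that share over 80%, only 8.17% did, with a median of 2.41 over the 46 tested, and the 534 tested genes that share 20 to 80% had a median of 0.67. EEF1G, a subunit of the elongation factor complex, shares 99.9% and had 0 counts in all 4 libraries. EIF4A1, the main cap-complex helicase, shares 48.6%, and was counted at 2.02 and 2.34 CPM in the cytoplasm and at 19.2 and 22.6 CPM in the nucleus, while its paralogue EIF4A2 stood at 222.7 and 288.4 against 566.5 and 573.8 CPM. The readthrough gene SENP3-EIF4A1 itself had 0 and 9 counts against 11 and 28. Of the 15 genes of the ribosomal, mitochondrial ribosomal, translation factor, oxidative phosphorylation and proteasome lists that were higher in the nucleus, 8 shared exonic bases on the same strand and 7 had a mean below 15 CPM. Of the 270 that were higher in the cytoplasm, 70 shared bases and 11 were below 15 CPM. The part of overlap in these values was not tested.

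SNU-449 cells gave the same direction for most genes. Of 15017 genes tested in both lines, 4731 were higher in the nucleus in both, which is 82.2% of those called in HepG2 and 72.5% of those called in SNU-449. A further 4643 were higher in the cytoplasm in both, 76.7% of the HepG2 calls and 79.8% of the SNU-449 calls. These shares are to be read against all calls among the 15017 genes. SNU-449 had 6524 nuclear and 5815 cytoplasmic calls, and HepG2 had 5754 and 6050. Opposite calls were made for 322 genes that were nuclear in HepG2 and for 532 that were cytoplasmic in HepG2. A test of the difference between the lines (SNU-449 minus HepG2, all 16 libraries) passed for 6821 of 20459 genes (33.3%). For CDK6 it did not pass (difference -0.12, SE 0.16, adjusted p = 0.63 in edgeR), nor for NXF1 (0.30, SE 0.17, adjusted p = 0.20) or GAPDH (0.34, SE 0.19, adjusted p = 0.18).

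Among genes where the lines differed, several were more nuclear in SNU-449. NEAT1 had a log2 fold change of 5.80 there against 3.43 in HepG2 (difference 2.40, SE 0.21, edgeR adjusted p = 8.3e-13). EEF1A1 stood at -1.26 against -2.89 (difference 1.66, SE 0.19, edgeR adjusted p = 9.8e-10). HNRNPA1 was at 0.55 in SNU-449 against -0.98 in HepG2. Of the 20 snoRNA host genes, all also tested in SNU-449, the lines differed for 14. Of all 17499 genes tested in HepG2 they differed for 6663, but only 15017 of the 17499 were also tested in SNU-449. GAS5, which did not pass in HepG2, was at 1.85 in SNU-449 (difference 1.61, SE 0.18). Genes more nuclear in HepG2 were fewer among those named: KCNQ1OT1 (difference -1.65, SE 0.52), MRPL38 (-1.55, SE 0.27) and POLE (-0.84, SE 0.17) are examples. Of the 79 ribosomal protein genes the lines differed for 34, a share near the 5892 of 12877 of all protein-coding genes. They differed for 3 of the 25 histones and for 436 of the 2693 lncRNAs tested in HepG2. Of these, 24 histones and 1827 lncRNAs were also tested in SNU-449, as were 11829 of the protein-coding genes. The shares are therefore not all of genes measured in both lines.

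Structure and function lists gave a similar order in both lines, with some exceptions. By coding length, the medians of the same 5 bins in SNU-449 ran from -1.17 to 0.98, close to the -1.29 to 0.75 of HepG2. By GC content they did not lie as flat: in SNU-449 the medians were 0.41, 0.26, -0.07, -0.41 and -0.54 from the lowest to the highest GC, where HepG2 had -0.09, -0.22, -0.31, -0.23 and -0.15. No test was made of these medians. Retained-intron genes had a median of 2.48 in SNU-449 against 2.45, chromatin regulators 1.42 against 1.23, and mitochondrial ribosomal proteins -1.42 against -1.56. Secreted liver proteins, of which fewer could be tested in SNU-449, stood at 1.26 against -0.08, and genes of the ER translocon and folding at -0.06 against -0.87, with 21 of their 30 genes passing the test of the difference.

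**Figure D5:**
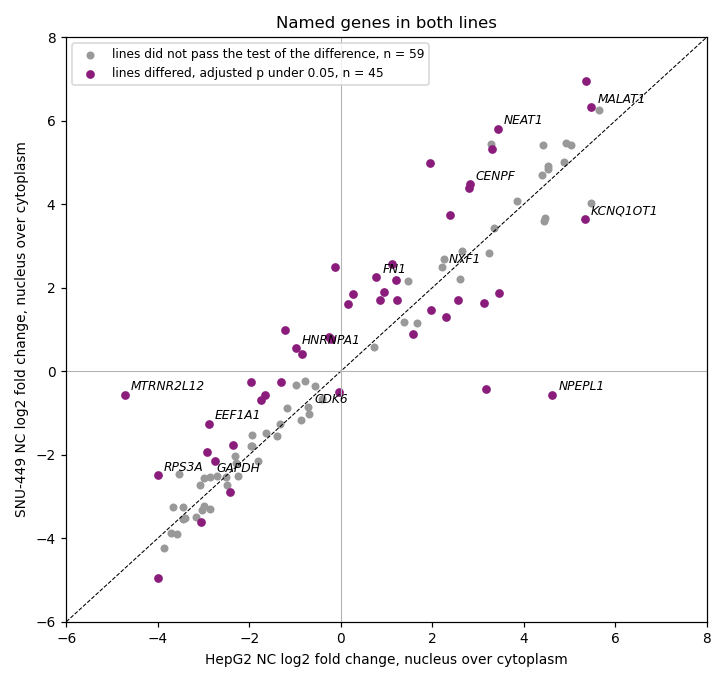
Log2 fold change of nucleus over cytoplasm in HepG2 NC (x axis) and in SNU-449 NC (y axis) for 104 named genes tested in both lines, without ZNF785, which had no cytoplasmic count in HepG2, and with the dashed line where both are equal. The lines differed at an adjusted p under 0.05 in edgeR for 45 genes, 32 of them with the higher value in SNU-449 and 13 with the higher value in HepG2.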

How the data were processed

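RNA of nuclear and cytoplasmic fractions was sequenced as directional libraries, per the labels' protocols, in duplicates that the series' design text calls biological. The authors deposited raw read counts per gene, 1 table per line. The submitters' processing notes name HISAT2 2.2.1, Trim Galore 0.6.4 and the build hg38. The counting program, its use of strand and its annotation are not given in the sources used here. A broken entry (ANK2) was left out. Of 67938 identifiers, 58395 are in GENCODE 29, the source of classes, structures and overlaps (other identifiers held 0.118% of HepG2 counts).

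The 8 HepG2 libraries were fitted with edgeR 4.0.16 in R 4.3.3 (filterByExpr with a minimum count of 10, TMM, robust quasi-likelihood F-test, 2-sided, Benjamini-Hochberg over 17499 genes, threshold 0.05), with 1 mean per group and no replicate block. The SE is the log2 fold change over the square root of F. The difference between lines came from 1 fit over 16 libraries. The scripts were tested on simulated data. The comparison, the gene lists and their members were chosen with earlier results of these data known, and list counts and medians are descriptions. Named genes are the fraction markers and the study's genes; among called genes whose groups do not overlap and whose mean is at least 10 CPM, the 10 protein-coding and 6 lncRNA genes with the highest and the lowest fold change; the 6 most abundant in each fraction; and the highest, lowest and most abundant tested member of each list. Other named genes were chosen after their values were seen. Medians relative to coding length were added after seeing the data. Floors cover counting error only. Results for some genes are not reported here. Alternatives were DESeq2 1.42.0, other scalings and filters, fewer libraries, and a replicate block.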

Additional observations from a re-analysis of the deposited data

Results flagged for a closer look

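The nucleus to cytoplasm difference itself differed between HepG2 and SNU-449 for 6821 genes in the test of that difference. Among the named genes measured in both lines, 9 differed by at least 2 on the log2 scale, and their SNU-449 minus HepG2 differences are given here. NEAT1 (2.40) was nuclear in both lines. MTRNR2L12 (4.19) stood at -4.72 in HepG2 and -0.56 in SNU-449, and NPEPL1 (-5.16) at 4.62 and -0.56, with 22.1% of its exonic bases shared on the same strand. RPL36A (2.06) and NDUFV2 (3.08), both with under 15 CPM in HepG2 and exonic bases shared on the same strand, were nuclear in both lines. CYP2E1 (-3.58), with 2 and 3 counts in the HepG2 cytoplasm, was 3.18 in HepG2 and -0.43 in SNU-449. TF (2.64) was -0.12 in HepG2 and 2.50 in SNU-449, and ACTA2 (2.23) was -1.21 and 0.99. ZNF785 (-6.07) had 0 counts in both HepG2 cytoplasmic libraries and 24 and 22 in the nuclear ones, so its fitted difference depends on the prior count and is no measure of size; in SNU-449 it stood at 1.31.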

How the results depend on the processing

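Replicate numbers were not taken to pair the libraries, since the labels name no shared batch. The replicate differences of the fractions correlated across genes at 0.0553, which cannot show whether a number marks the same culture. With the number as a replicate block, 6797 genes were higher in the nucleus and 6558 in the cytoplasm, and the difference between lines passed for 6715. Scaling by library totals alone gave 4036 genes higher in the cytoplasm, 2015 of them at least 2-fold, and reversed AHSG (0.09), E2F4 (0.20) and PLK1 (0.06). Under every other planned setting these counts of genes stayed within 1.5 times. Leaving out 1 NC library in turn gave 6530 to 6819 genes higher in the nucleus and 6105 to 6582 in the cytoplasm, 4998 to 5189 and 3915 to 4281 of them at least 2-fold; for the difference between lines, with each NC library of either line left out, 5619 to 6876. With a library left out, the lone sample is assumed to vary like the other groups. A test against a 2-fold change (glmTreat) kept 4077 and 3096. Of 122 named genes, 104 kept direction and side of the threshold under all settings, and 114 under all but scaling by totals. MT1X passed at -0.85 but not without cytoplasmic replicate 2 (-0.38) or under totals (-0.23). Of the 84 medians over classes, bins and lists, 81 moved by more than the replicate spread under totals, 46 with DESeq2, 41 with RLE size factors, 44 with only genes that share no exonic base, 8 with only the NC libraries, and 13 to 43 with 1 library left out.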
